A study of Mus musculus with 24 samples.

Results

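The genes described here were 35 macrophage genes, chosen by name, among the 55335 genes counted in 24 RNA-Seq libraries of primary osteoblast (OB) cultures. All 35 were present in the count tables, and all 35 were among the 20434 genes that passed the filter on low counts and were tested. The cultures held wild-type (WT) cells or cells heterozygous (Het) for G610C, a glycine substitution in Col1a2, which encodes the collagen α2(I) chain. Each genotype had 4 libraries, numbered as replicates 1 to 4, at each of days 8, 14 and 21 after seeding, so that there were 6 groups. Per the study's methods, OBs were extracted from parietal bones of pups 4 to 5 days old on a C57BL/6J background, pooled over several pups of a genotype, and all cultures received ascorbic acid 2-phosphate. The methods describe 2 experiments with different litters, plating densities and oxygen during expansion, and the labels do not say which libraries belong to which. The wells they describe for each genotype and day are fewer than the 4 libraries, so whether every library is a separate culture is not known. A library therefore stands for pooled pups and not for an animal, and p-values measure the spread between these libraries, which may be technical. G610C changes single bases, so gene counts do not check the genotype labels.

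Macrophages are phagocytes of the myeloid lineage. They need the receptor Csf1r, whose ligands CSF1 and IL-34 are made by stromal cells including OBs, and the transcription factor PU.1, encoded by Spi1. Resident macrophages lie beside OBs on bone surfaces, take up dying cells and debris, secrete complement C1q and lysozyme, and share precursors with osteoclasts. In bulk RNA, fewer macrophages and less macrophage RNA per cell cannot be told apart.

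A first set of sequences is shown because its genes carry the same short motif but took different courses in culture. Promoter windows came from RefSeq on GRCm38.p6 and were matched for 26 of the 35 members, with 31 windows in all; the 250 bases before each start were searched on both strands. The letters GAGGAA, a core recognised by PU.1 and related factors, or their reverse complement TTCCTC stood in 14 of the 26 genes and in 15 of the 31 windows, against 23.3% of 32851 windows over all genes. C1qb and Itgam followed the common profile of the members and F13a1 did not. Capitals mark the motif.
C1qb, chr4:136886201-136886450, minus strand: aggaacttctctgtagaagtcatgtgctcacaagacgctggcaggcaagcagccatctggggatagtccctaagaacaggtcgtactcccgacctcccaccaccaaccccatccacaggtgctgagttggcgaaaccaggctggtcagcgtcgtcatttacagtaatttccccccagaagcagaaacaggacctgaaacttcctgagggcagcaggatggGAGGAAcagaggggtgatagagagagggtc
Itgam, chr7:128062390-128062639, plus strand: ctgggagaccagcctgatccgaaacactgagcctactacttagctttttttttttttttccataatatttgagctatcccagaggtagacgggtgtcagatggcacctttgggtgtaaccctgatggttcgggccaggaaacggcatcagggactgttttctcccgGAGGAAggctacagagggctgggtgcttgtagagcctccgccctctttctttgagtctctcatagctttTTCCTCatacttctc
F13a1, chr13:37050245-37050494, minus strand: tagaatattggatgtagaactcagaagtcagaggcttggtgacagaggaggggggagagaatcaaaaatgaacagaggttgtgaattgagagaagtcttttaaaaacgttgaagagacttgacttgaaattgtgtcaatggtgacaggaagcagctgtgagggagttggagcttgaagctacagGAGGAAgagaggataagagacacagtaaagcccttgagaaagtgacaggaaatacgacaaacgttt
The motif began 30 bases upstream of the start of C1qb, 84 and 15 bases upstream of that of Itgam, and 66 bases upstream of that of F13a1. A match describes letters and shows no binding.

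The second set comes from MHC class II genes, which present antigen and stood apart from the other members. The letters CTGATTGG, the core of the class II Y box, or CCAATCAG on the other strand stood in 2 of the 26 genes, H2-Aa and H2-Eb1. This was 2 of the 31 windows, against 3.83% of all windows. No window was matched for H2-Ab1 or Cd74, so these were not searched. The 130 bases before each start are shown with this core in capitals.
H2-Aa, chr17:34287824-34287953, minus strand: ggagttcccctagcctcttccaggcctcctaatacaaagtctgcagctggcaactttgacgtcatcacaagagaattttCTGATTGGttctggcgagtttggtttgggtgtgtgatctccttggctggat
H2-Eb1, chr17:34305737-34305866, plus strand: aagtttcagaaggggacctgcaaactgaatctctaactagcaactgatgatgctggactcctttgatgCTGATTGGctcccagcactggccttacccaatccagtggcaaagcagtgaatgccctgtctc
The core began 51 bases upstream of the start of H2-Aa and 62 bases upstream of that of H2-Eb1.

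The third set shows the lysozyme genes Lyz1 and Lyz2, near-identical neighbours on chromosome 10 whose reads can be confused and whose levels parted at day 21. Bases 51 to 250 upstream of each start are given, with capitals where the genes differ at the same distance from the start and with no gaps allowed.
Lyz1, chr10:117292919-117293118, minus strand: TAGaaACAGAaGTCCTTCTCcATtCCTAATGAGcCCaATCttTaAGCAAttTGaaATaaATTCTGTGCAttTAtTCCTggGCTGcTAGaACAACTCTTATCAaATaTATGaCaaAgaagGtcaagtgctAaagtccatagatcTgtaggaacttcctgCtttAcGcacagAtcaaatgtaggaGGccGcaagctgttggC
Lyz2, chr10:117282323-117282522, minus strand: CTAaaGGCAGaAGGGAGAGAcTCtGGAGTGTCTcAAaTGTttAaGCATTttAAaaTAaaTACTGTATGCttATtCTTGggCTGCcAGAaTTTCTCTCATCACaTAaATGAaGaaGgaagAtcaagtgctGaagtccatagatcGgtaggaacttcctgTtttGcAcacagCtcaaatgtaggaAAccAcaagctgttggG
Of the 100 bases next to the start, 92 were identical, the nearest 50 without a difference, and of the 150 bases farther away 60 were. Much of that farther stretch reads alike once moved by a base. Its many capitals thus come largely from allowing no gaps and do not measure divergence. The coding sequences (GENCODE M21 on GRCm38) each join 4 exons on the minus strand, between 117288586 and 117292838 for Lyz1 and between 117278124 and 117282242 for Lyz2. They were identical at 422 of 444 positions. The first 300 coding bases are shown, with capitals at the 20 of them that differ.
Lyz1 coding: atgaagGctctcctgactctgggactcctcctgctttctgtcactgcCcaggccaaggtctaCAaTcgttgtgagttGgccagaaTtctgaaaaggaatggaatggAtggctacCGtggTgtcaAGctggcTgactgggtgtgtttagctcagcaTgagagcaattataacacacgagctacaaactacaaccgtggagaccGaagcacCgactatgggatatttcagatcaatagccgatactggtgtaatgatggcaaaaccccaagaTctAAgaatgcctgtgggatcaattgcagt
Lyz2 coding: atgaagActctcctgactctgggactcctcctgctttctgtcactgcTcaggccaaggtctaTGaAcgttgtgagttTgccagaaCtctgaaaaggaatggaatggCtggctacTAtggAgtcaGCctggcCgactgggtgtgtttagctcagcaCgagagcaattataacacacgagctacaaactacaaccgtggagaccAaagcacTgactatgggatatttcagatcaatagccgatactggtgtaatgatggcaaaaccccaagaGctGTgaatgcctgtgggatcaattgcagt
Over all 444 positions, the longest stretch without a difference was 118 bases. Of all windows of 50 bases in the Lyz1 transcript 16.1% also occurred in the Lyz2 transcript, and of windows of 100 bases 2.06% did. The read length is not given in the sources used here, so counts of Lyz1 are uncertain to that extent.

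The 35 genes lie on 15 chromosomes. The C1q genes are neighbours on chromosome 4, with gaps of 3616 bases between C1qb and C1qc and 2851 bases between C1qc and C1qa, and H2-Ab1, H2-Aa and H2-Eb1 are neighbours on chromosome 17. Exons of 7 members overlap another gene. Hmgxb3 overlaps Csf1r, Bola2 overlaps Coro1a, Gm30489 overlaps F13a1, Gm33858 overlaps Cx3cr1 and Gm38204 overlaps Fcgr2b on the opposite strand, while Gm49368 overlaps Itgam and Mir5107 overlaps Cd74 on the same strand. Whether counting used strand is not given in the sources used here, so reads of these pairs may not be separate.

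Library totals ran from 17140202 to 59734231 counts. Levels are given as relative quantity (RQ): a library's count of the gene over the geometric mean of its counts of the housekeeping genes Actb, Actg1, Sdha and Mrfap1, times 1000. RQ is not per length, so it compares libraries and not genes. Over 14890 genes averaging 50 counts or more, replicate 1 lay between the other 3 libraries of its group for 14.3% to 25.8% of genes. Replicate 4 did so for 68.1% to 84.3% in 5 groups and for 40.6% in Het at day 21. Among the members, replicate 4 lay between the other 3 for 26 to 35 genes in those 5 groups and was the highest for 29 in Het at day 21. Replicate 1 thus stood apart, and results are given with and without it and, where the value changes, without replicate 4.

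The macrophage genes rose steeply with time in culture. Together they took 0.0182% to 0.0334% of all counts in WT at day 8, 0.0939% to 0.287% at day 14 and 0.404% to 0.481% at day 21. The Het shares were 0.0279% to 0.0875%, 0.231% to 0.494% and 0.5004% to 1.23%, the highest being that of replicate 4 at day 21. Lyz2 alone supplied 39.9% to 55.5% of the members' counts.

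**Figure D1:**
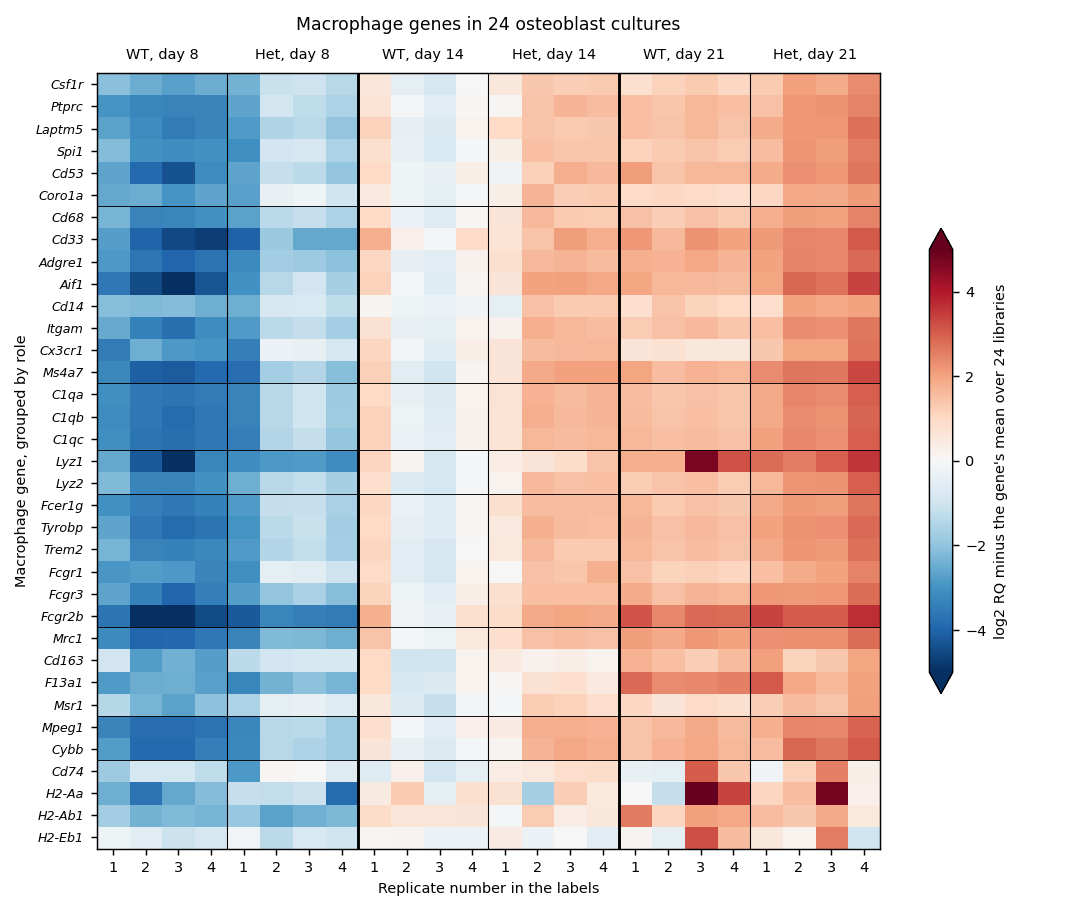
Level of each of the 35 macrophage genes (rows, grouped by role) in each of the 24 libraries (columns, replicates 1 to 4 of each genotype and day), as log2 RQ minus the gene's own mean over the 24 libraries. Nearly all genes pass from low at day 8 to high at day 21, Het replicates 2 to 4 lie above WT replicates 2 to 4 for 32 genes at day 8, and Cd74, H2-Aa and H2-Eb1 are high in few day 21 libraries.

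From day 8 to day 14, 33 of the 35 members rose and 0 fell (edgeR quasi-likelihood test over all 24 libraries, Benjamini-Hochberg adjusted p under 0.05), the exceptions being Cd74 and H2-Eb1. With the replicate number as a block, Cd74 was called as well, at 1.09 ± 0.38 (edgeR adjusted p = 0.0211). Of all genes tested, 47.6% were called and 34.2% were higher. The members' median log2 fold change was 3.17, against 0.13 over all genes. Scaling to total counts moved the median of all genes to -0.15 and turned the split of all genes from 6995 higher and 2741 lower to 3571 and 7992, with 33 members still higher.

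The lineage genes rose in both genotypes. Spi1 stood at RQ 3.77, 2.05, 1.94 and 2.07 in WT replicates 1 to 4 at day 8 and at 29.2, 13.03, 10.03 and 16.4 at day 14. Its Het values were 1.99, 8.705, 9.49 and 5.62 at day 8 and 20.6, 47.4, 44.4 and 44.3 at day 14. These days did not overlap in either genotype, and the log2 fold change was 2.71 ± 0.27 (edgeR adjusted p = 4.6e-08). Csf1r rose by 2.43 ± 0.21 (edgeR adjusted p = 6.25e-09) and Ptprc, which encodes the leukocyte phosphatase CD45, by 3.04 ± 0.25 (edgeR adjusted p = 2.08e-09).

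The genes of the C1q subunits moved together. C1qa in WT replicates 1 to 4 stood at RQ 14.6, 10.3, 9.69 and 10.7 at day 8, 244, 93.5, 75.5 and 137 at day 14 and 349.6, 315, 336 and 321 at day 21. The Het libraries stood at 12.03, 46.02, 61.5 and 34.7, then 201, 400.1, 369 and 399, then 446, 658, 618 and 974. Within a genotype, consecutive days did not overlap. From day 8 to day 14 the log2 fold change was 3.38 ± 0.29 (edgeR adjusted p = 3.51e-09) for C1qa, 3.48 ± 0.29 for C1qb and 3.51 ± 0.28 for C1qc.

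The largest rise was that of Fcgr2b, the inhibitory Fc receptor, by 5.32 ± 0.33 (edgeR adjusted p = 2.87e-11). Its RQ was 0.404 to 1.54 in WT and 1.07 to 2.06 in Het at day 8, and 15.4 to 68.2 and 37.3 to 77.8 at day 14. Cd33, a sialic acid receptor, followed with 4.47 ± 0.33 and Mrc1, the mannose receptor, with 4.02 ± 0.23. The mean RQ of Mrc1 went from 13.3 ± 3.58 (SD, n = 4) to 244 ± 143 in WT and from 29.5 ± 8.92 to 421 ± 81.1 in Het. The smallest rises among the members called were those of Cd163, the haemoglobin scavenger receptor, at 1.69 ± 0.28 and Msr1, the class A scavenger receptor, at 1.71 ± 0.25.

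From day 14 to day 21, 33 members rose further and 0 fell, at a median log2 fold change of 1.16, while 18% of all genes were called and 12.1% were higher. Cx3cr1, the fractalkine receptor, and Cd74, the class II invariant chain, were not called. The count was 13 without replicate 4, with 34 at an unadjusted p under 0.05 and 4.70% of all genes higher. It was 35 without replicate 1, where 18.9% of all genes were higher. In WT alone 28 members were called, against 4.95% of all genes higher, and in Het alone 5 were, against 3.84%. The WT count was 34, 4, 3 and 0 without replicate 1, 2, 3 or 4, against 12%, 0.519%, 0.365% and 0.0876% of all genes. The Het count was 30 without replicate 1, against 11.4%, and 12 by DESeq2, against 6.53%. The median ratio of day 21 to day 14 in WT was 1.45 in replicate 1 and 3.32 for the means of replicates 2 to 4, and in Het 2.54 and 1.83.

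The change from day 14 to day 21 differed between the genotypes for 0 members by edgeR, by DESeq2 and at an unadjusted p under 0.05, where 0% of all genes were called. Without replicate 1 it differed for 2 members, against 0.0661% of all genes, with 28 at an unadjusted p under 0.05, and the median log2 difference between Het and WT went from -0.44 to -0.83. Without replicates 1 and 4, a choice made after seeing the data, it differed for 26, each with the smaller rise in Het, against 1.03% of all genes. Averaged over the genotypes, replicate 1 and replicates 2 to 4 differed in this change for 0 members by edgeR and by DESeq2. The count was also 0 at an unadjusted p under 0.05, and 1.43% of all genes were called. Replicate 1 had the smaller median ratio in WT, 1.45 against 3.32, and the larger in Het, 2.54 against 1.83. An average over genotypes cannot show a difference that runs in opposite directions, and a fit within each genotype was not made.

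Most members were higher in Het than in WT in replicates 2 to 4, and lower in Het in replicate 1 at days 8 and 14. Over all replicates at days 14 and 21 together, 26 of 35 were higher in Het and 0 lower, at a median log2 fold change of 0.97. Of all genes, 15.2% were called and 7.15% were higher. Leaving out replicate 2, 3 or 4 left 0, 1 and 0 members called by edgeR, with 26, 25 and 24 at an unadjusted p under 0.05. Of all genes, 1.16%, 1.78% and 0.418% were then called, and the members' median was 0.85, 0.87 and 0.83. Leaving out replicate 1 gave 28 with a median of 1.32, where 41.9% of all genes were called and 18.4% were higher.

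Taken by day, 13 members were called at day 14, against 1.93% of all genes higher. Without replicate 2, 3 or 4 the day 14 count was 0, 0 and 0 by edgeR, with 17, 21 and 22 at an unadjusted p under 0.05, against 0.0340%, 0.0535% and 0.0243% of all genes higher. At day 21, 0 were called by edgeR, against 0.651% of all genes higher, with 23 at an unadjusted p under 0.05 and 1 by DESeq2. With the replicate number as a block, 21 members were higher at day 14, against 4.37% of all genes, and 1 at day 21, Cx3cr1, against 2.33%. Without replicate 1, 29 were higher at day 14 and 26 at day 21, where 1, F13a1, was lower; 14.4% and 10.7% of all genes were higher.

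At day 8, 11 members were higher in Het and 0 lower, at a median log2 fold change of 1.42, where 0.631% of all genes were called and 0.318% were higher. These were C1qa, C1qb, C1qc, the Fc receptor genes Fcer1g and Fcgr1, the adaptor gene Tyrobp, and Aif1, Ptprc, Mpeg1, Cx3cr1 and Coro1a. DESeq2 called 25, against 1.18% of all genes higher. With the replicate number as a block the count was 13, against 0.499% of all genes higher, the 2 added being Cd68 at 1.398 ± 0.35 (edgeR adjusted p = 0.0483) and Adgre1 at 1.44 ± 0.36 (edgeR adjusted p = 0.0489). Without replicate 1 the count was 28, against 4.14% of all genes higher, and without replicate 2, 3 or 4 it was 0 by edgeR, with 25, 26 and 26 at an unadjusted p under 0.05 and 0% of all genes called in each case. The Het effect at days 14 and 21 differed from that at day 8 for 0 members by edgeR and DESeq2, with 1 (4 by DESeq2) at an unadjusted p under 0.05, where 0.171% of all genes were called. Without replicate 1 it was smaller at the later days for 2 members, against 4.72% of all genes called in either direction. Without replicates 1 and 4 it was smaller for 16 members, against 3.72% of all genes.

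Over replicates 1 to 4, every Het library exceeded every WT library for 5, 1 and 19 of 35 members at days 8, 14 and 21, against 1.23%, 2.17% and 7.16% of all genes. Within replicates 2 to 4, the lowest Het library exceeded the highest WT library for 32 of 35 members at day 8, against 8.56% of all genes. The count was 31 at day 14, against 18.5%, and 28 at day 21, against 18.1%. The exceptions were H2-Aa, H2-Ab1 and H2-Eb1 at day 8, joined by Cd163 at day 14 and by Cd163, Cd74, Lyz1 and F13a1 at day 21. In replicate 1 the Het library exceeded the WT library for 8 members at day 8, against 52.2% of all genes, for 3 at day 14, against 26.1%, and for 31 at day 21, against 62.3%. The median ratio of Het to WT in replicate 1 was 0.827, 0.706 and 1.195 at days 8, 14 and 21, and for the means of replicates 2 to 4 it was 3.72, 3.28 and 1.89.

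**Figure D2:**
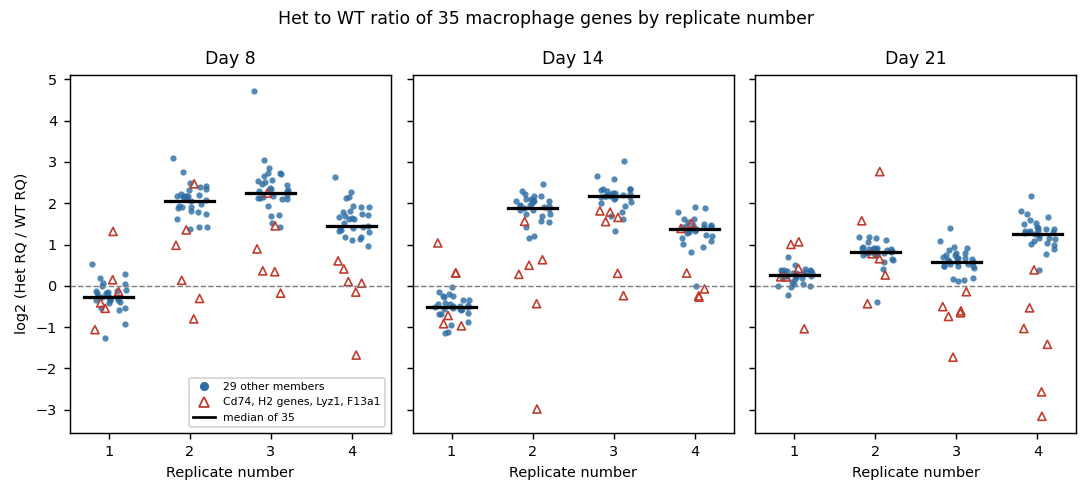
Ratio of Het to WT RQ on the log2 scale for each of the 35 macrophage genes (points), between libraries of the same replicate number (x axis) at days 8, 14 and 21 (panels); bars are medians over the 35 genes. The replicate 1 medians are ratios of 0.827, 0.706 and 1.20, and those of replicates 2 to 4 range from 1.49 to 4.74.

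The difference of the Het effect between replicates 2 to 4 and replicate 1, over the 3 days, was fitted after these values had been seen. It was called for 28 members, each with the larger effect in replicates 2 to 4, at a median log2 difference of 1.62. Of all genes, 5.74% were called and 3.19% were higher. For C1qa the log2 difference was 1.81 ± 0.32 (edgeR adjusted p = 0.00258) and for Cybb, the catalytic subunit of the phagocyte NADPH oxidase, 1.97 ± 0.28 (edgeR adjusted p = 0.0007). The 7 members not called were Cd163, F13a1, Lyz1, Cd74, H2-Aa, H2-Ab1 and H2-Eb1. Over both genotypes, replicate 1 was higher than replicates 2 to 4 for 1 member, Cd163, and lower for 2, Cd14 and Cd74, where 39.8% of all genes were called.

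By role, 6 of 6 lineage genes were higher in Het at days 14 and 21. This count and those of the other roles below are from all 24 libraries, where 7.15% of all genes were higher. As given above, almost no member stayed called when replicate 2, 3 or 4 was left out. At day 14 Csf1r stood at RQ 302, 141, 109 and 193 in WT replicates 1 to 4 and at 296, 507, 468 and 486 in their Het counterparts. The day 21 values were 348, 442, 488 and 405 in WT and 492, 824, 726 and 1013 in Het. The genotypes overlapped at day 14 through WT replicate 1 and did not overlap at day 21. The log2 fold change over both days was 1.05 ± 0.205 (edgeR adjusted p = 0.00276), and that of Spi1 was 1.03 ± 0.25 (edgeR adjusted p = 0.00902). Without replicate 1, Spi1 differed by 1.37 ± 0.12 (edgeR adjusted p = 1.51e-07).

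The surface genes gave 7 of 8, all but Cd33, which stood at 0.62 ± 0.26 (edgeR adjusted p = 0.116). Adgre1, which encodes the macrophage antigen F4/80, had RQ values of 210.4, 76.9, 70.4 and 119 for WT at day 14 and 178, 317, 332 and 309.5 for Het. At day 21 WT libraries measured 349, 337, 394 and 331 and Het libraries 417, 565, 546 and 734, all Het above all WT. Its log2 fold change was 0.97 ± 0.22 (edgeR adjusted p = 0.00723). The largest fold change of the 35 was that of Ms4a7, a membrane protein of tissue macrophages, at 1.32 ± 0.29 (edgeR adjusted p = 0.00535). Aif1, which encodes the macrophage protein IBA1, measured 0.0807 to 0.343 in WT and 0.498 to 2.13 in Het at day 8, at a log2 fold change of 2.89 ± 0.54 (edgeR adjusted p = 0.0187). This rests on 2 to 6 counts in the WT libraries and 7 in Het replicate 1.

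The Fc receptor and adaptor genes gave 6 of 6. Fcer1g, the gamma chain shared by Fc receptors, lay closest to the members' median profile, with a root mean square difference of 0.13 on the log2 scale over the 24 libraries. At day 14 its RQ was 89.6, 35.2, 28.3 and 46.2 across the WT libraries and 75.8, 129, 128 and 126 across the Het libraries. The day 21 libraries gave 137, 109.5, 121 and 112 and 161, 192, 188 and 278. On both days replicate 1 was the highest WT library and the lowest Het library. The log2 fold change was 0.999 ± 0.21 (edgeR adjusted p = 0.00505). Trem2, a lipid receptor, and Tyrobp, its signalling adaptor DAP12, differed by 0.97 ± 0.24 and 1.04 ± 0.24.

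Both effectors were higher, Cybb by 1.27 ± 0.26 (edgeR adjusted p = 0.00403) and Mpeg1, a pore-forming protein, by 1.07 ± 0.25 (edgeR adjusted p = 0.00746). The complement genes gave 3 of 3, with 1.18 ± 0.26 (edgeR adjusted p = 0.00583) for C1qa. Per kilobase of the gene length given with the counts, Lyz2 had the highest mean RQ of the 35 in every group, from 159.9 per kb in WT at day 8 to 6106 per kb in Het at day 21. That length is per gene and not per transcript, so the order between genes is approximate. C1qa and C1qb came next in every group, at 318 and 311 per kb in WT at day 21.

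**Figure D3:**
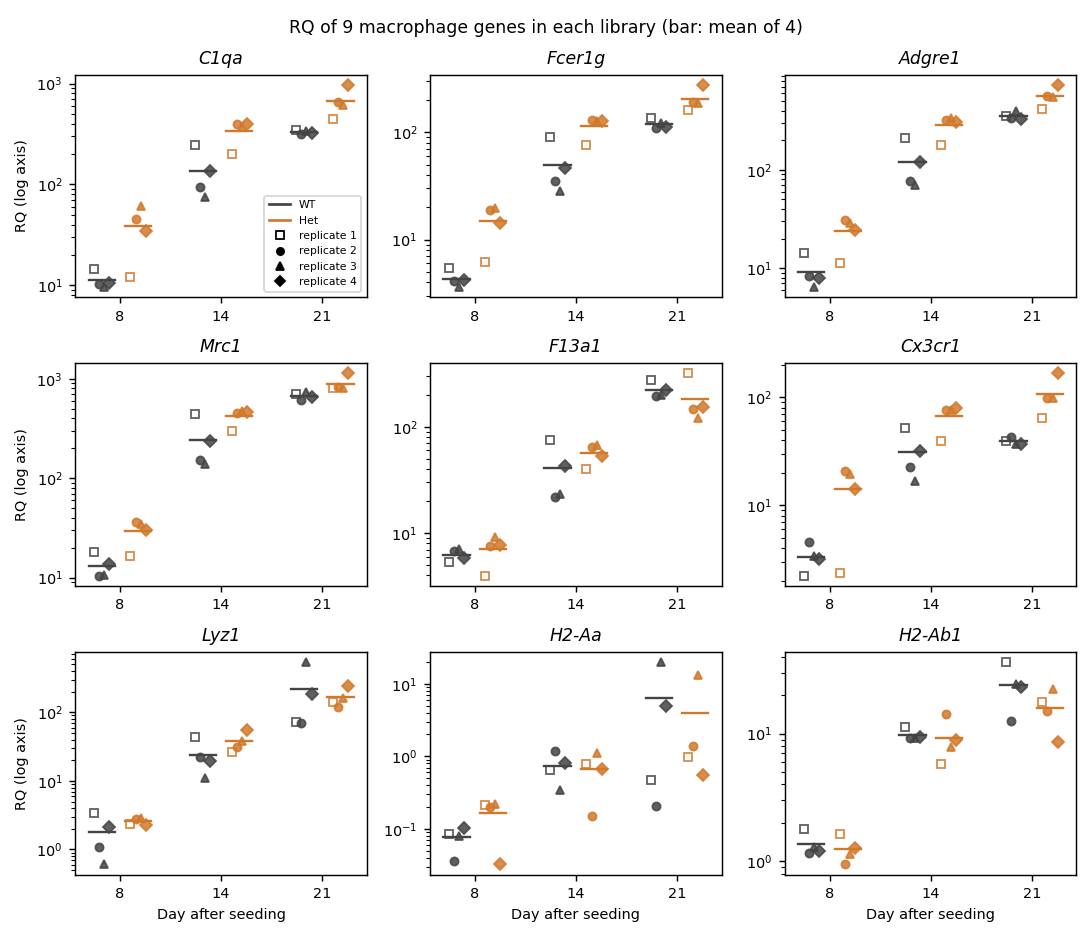
RQ (log axis) of 9 macrophage genes in each library at days 8, 14 and 21; colours separate WT from Het, symbols separate replicate 1 from replicates 2 to 4, and bars are means of 4 libraries. C1qa, Fcer1g and Adgre1 show Het replicates 2 to 4 above WT replicates 2 to 4 at each day, F13a1 shows the opposite order at day 21, and H2-Aa passes 4 in 3 libraries.

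The scavenger group, in which F13a1 was placed, gave 1 of 4, Msr1 at 0.94 ± 0.23 (edgeR adjusted p = 0.0111). Mrc1 stood at 0.59 ± 0.203 (edgeR adjusted p = 0.0527) and was called without replicate 1, at 0.92 ± 0.12 (edgeR adjusted p = 1.06e-05). With the replicate number as a block Mrc1 was called too, at 0.61 ± 0.21 (edgeR adjusted p = 0.0354). Cd163 was not called in either case, at 0.22 ± 0.26 (edgeR adjusted p = 0.62) and 0.402 ± 0.18 (edgeR adjusted p = 0.0837).

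F13a1, the A subunit of coagulation factor XIII, changed order between days. WT replicates 1 to 4 measured RQ 75.6, 21.9, 23.1 and 42.98 at day 14 and the Het libraries 39.9, 64.6, 68.00 and 53.2. By day 21 the WT values were 274, 197, 200.5 and 222 and the Het values 317, 145, 119.7 and 153. Within replicates 2 to 4 at day 21 each Het library was below each WT library, which held for no other member, while Het replicate 1 was the highest of the 24 libraries. The log2 fold change at day 21 was -0.28 ± 0.32 (edgeR adjusted p = 0.748) over all libraries and -0.57 ± 0.17 (edgeR adjusted p = 0.025) without replicate 1. The rise of F13a1 from day 14 to day 21, 2.08 ± 0.24 (edgeR adjusted p = 1.04e-05), was exceeded by those of Lyz1 and H2-Aa.

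Cx3cr1 rose from day 8 to day 14 and was not called over the second interval. In WT it measured RQ 52.2, 22.6, 16.6 and 31.96 at day 14 and 38.95, 42.95, 37.2 and 36.9 at day 21, so the days overlapped through replicate 1. Het libraries measured 39.3, 76.04, 76.5 and 78.8 and 63.6, 97.5, 97.7 and 166. The log2 fold change from day 14 to day 21 was 0.502 ± 0.29 (edgeR adjusted p = 0.258), and 0.68 ± 0.15 (edgeR adjusted p = 0.00227) without replicate 1. Het exceeded WT at days 14 and 21 by 1.302 ± 0.29 (edgeR adjusted p = 0.00597).

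The class II genes H2-Eb1 and H2-Aa and the invariant chain Cd74 lay farthest from the common profile, and of the 4 class II members 0 were called between genotypes by edgeR, at days 14 and 21 or at day 8. H2-Aa had 1 to 6 counts in each day 8 library, too few for a fold change. At day 21 its RQ was 0.473, 0.204, 19.8 and 4.97 in WT replicates 1 to 4 and 0.9899, 1.39, 13.03 and 0.555 in Het. The high libraries were WT replicates 3 and 4 and Het replicate 3, with 375, 126 and 328 counts, and no other library had over 36. H2-Eb1 stood at 14.4, 4.61 and 9.17 in those libraries and at 0.776 to 2.28 in the other day 21 libraries. Cd74 stood at 64.6, 19.9 and 45.5, and at 5.84 to 17.4 in the others.

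H2-Ab1, a class II beta chain, took another course. Its RQ was 1.17 to 1.801 in WT and 0.945 to 1.64 in Het at day 8, 9.22 to 11.3 and 5.78 to 14.4 at day 14, and 12.7 to 36.3 and 8.65 to 22.3 at day 21. It rose by 2.89 ± 0.23 (edgeR adjusted p = 1.64e-09) from day 8 to day 14, with no overlap of these days. The genotypes overlapped at every day, and the highest of the 24 libraries was WT replicate 1 at day 21, which was low for H2-Aa.

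Lyz1 was highest in a library that was also high for H2-Aa. At day 21 it measured RQ 71.2, 70.2, 537 and 186 in WT replicates 1 to 4 and 143, 120.2, 162 and 243 in Het. This was 1.88%, 1.68%, 12.1% and 4.97% of the Lyz2 level in WT and 1.67% to 2.86% in Het. Lyz2 measured 3795, 4176, 4444 and 3748 in WT and 4982, 7218, 7402 and 12539 in Het, so WT libraries differed less in Lyz2 than in Lyz1. Over days 14 and 21 Lyz2 was higher in Het by 1.16 ± 0.27 (edgeR adjusted p = 0.00728), and Lyz1 was not called, at 0.16 ± 0.36 (edgeR adjusted p = 0.828).

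Genes outside the list were ranked by the root mean square difference between their log2 RQ, centred on the gene's mean and with 0.5 added to each count, and the members' median profile over the 24 libraries. The nearest were Arl11 at 0.14, Pik3cg, Myo1f, Pik3ap1 and Cd300c2 at 0.15, Gm49368 at 0.16, and Nrros and Themis2 at 0.17. Gm49368 overlaps Itgam on the same strand, so its reads are not separate from those of a member. All 8 were measured in the same libraries, and the likeness is a description.

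Of 45 other macrophage genes, 44 rose from day 8 to day 14 and 41 from day 14 to day 21, with 0 lower, against 34.2% and 12.1% of all genes higher. Het exceeded WT for 36 at days 14 and 21 and for 7 at day 8, with 0 lower, against 7.15% and 0.318% of all genes higher. The Het effect was larger in replicates 2 to 4 than in replicate 1 for 32, with 0 the other way, against 3.19% of all genes. The largest genotype effects at days 14 and 21 were those of Fgr, a myeloid Src-family kinase, at 1.58 ± 0.397 (edgeR adjusted p = 0.0116) on 1 to 14 counts in WT and 4 to 60 in Het at day 14, and Csf2rb, the common beta chain of the GM-CSF receptor, at 1.296 ± 0.203 (edgeR adjusted p = 0.000546). Clec10a, a galactose lectin, was among those called from day 8 to day 14 and had 0 to 2 counts in WT and 1 to 4 in Het at day 8, too few for a fold change, and 29 to 54 and 16 to 29 at day 14. At day 8 the largest genotype effects among those called were those of Cd52 and Cd48, leukocyte surface proteins, at 2.25 ± 0.51 (edgeR adjusted p = 0.0474) and 2.001 ± 0.41 (edgeR adjusted p = 0.0272). These rest on few counts, with 7 to 20 in WT and 6 to 134 in Het for Cd52 and 10 to 17 and 19 to 100 for Cd48. Vsig4, a complement receptor, was higher in replicate 1 than in replicates 2 to 4, by 1.38 ± 0.42 (edgeR adjusted p = 0.0131). It had 0 to 20 counts in WT and 3 to 15 in Het at day 8, and 11 to 40 and 17 to 25 at day 14.

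Of 15 genes for ligands and recruiting factors, 13 were tested, 6 rose and 2 fell from day 8 to day 14, and 8 rose from day 14 to day 21. Of all genes, 34.2% rose and 2741 of 20434 fell over the first interval, and 12.1% rose over the second. Het exceeded WT at days 14 and 21 for 1, complement C3, by 0.800 ± 0.26 (edgeR adjusted p = 0.0452), where 7.15% of all genes were higher. Csf1 changed by -0.59 ± 0.11 (edgeR adjusted p = 0.000189) on the log2 scale from day 8 to day 14 and Il34 by 0.49 ± 0.103 (edgeR adjusted p = 0.000439). Between genotypes at days 14 and 21, Csf1 stood at 0.01 ± 0.11 (edgeR adjusted p = 0.962) and Il34 at -0.19 ± 0.102 (edgeR adjusted p = 0.212), neither called. The chemokine Ccl8, also called from day 8 to day 14, had at most 1 count in any day 8 library and 0 to 11 at day 14.

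The OB list was abundant in sum in all libraries, with most of its counts from Col1a1 and Col1a2. Markers of later OB stages were low at day 8. In WT and Het libraries, Bglap had 28 to 90 and 12 to 51 counts, Ifitm5 90 to 905 and 66 to 223, and Dmp1 55 to 771 and 70 to 125. The summed RQ of 9 OB genes was 32294 to 89011 on day 8 and 202205 to 340089 on day 21, against 318 to 1414 and 8986 to 24635 for the 35 macrophage genes. From day 8 to day 14 all 9 rose, where 34.2% of all genes did. In Het against WT, 2 of the 9 were called lower at days 14 and 21, the bone matrix gene Bglap at -1.54 ± 0.36 (edgeR adjusted p = 0.00799) and the lineage factor Runx2 at -0.39 ± 0.13 (edgeR adjusted p = 0.041). All 9 log2 fold changes were negative, from -1.54 to -0.34, with 8 at an unadjusted edgeR p under 0.05. Of 20434 genes, 1637 were called lower. At day 8, 2 were called lower, Dmp1 at -2.42 ± 0.401 (edgeR adjusted p = 0.00854) and Ifitm5 at -1.99 ± 0.28 (edgeR adjusted p = 0.00187). The 9 fold changes were again all negative, from -2.42 to -0.21, with 5 at an unadjusted edgeR p under 0.05. Of 20434 genes, 64 were called lower at day 8. Their part in the macrophage result was not tested.

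Markers of other blood cells were low. Of 12 neutrophil markers, 7 had at most 3 counts in every library, among them S100a9, Ly6g and Retnlg at 0, and the list summed to 1.03 to 23.00. Csf3r, a neutrophil marker that macrophages also express, was called higher at day 14 than at day 8, with 0 to 3 counts per library at day 8 in either genotype, 14 to 33 in WT at day 14 and 8 to 150 in Het. Of 8 lymphocyte markers 6 had at most 3 counts in every library, and the list summed to 0.1096 to 0.822. Mast cell markers summed to 0.257 to 7.33, with Mcpt4, Tpsb2, Ms4a2 and Fcer1a at 0, and erythroid markers to 0.357 to 1.21, with Hbb-bs and Hbb-bt at 0. Endothelial markers summed to 1.25 to 5.13 and dendritic cell markers to 4.27 to 25.2, with Flt3, Clec9a and Siglech at no more than 3 counts in every library. Zbtb46, also on the dendritic cell list, was not near 0, with 123 to 225 counts in WT and 82 to 144 in Het at day 8. It rose from day 8 to day 14 by 1.06 ± 0.21 (edgeR adjusted p = 0.000233). Its Het effect was lower in replicates 2 to 4 than in replicate 1, by -0.91 ± 0.23 (edgeR adjusted p = 0.023). Among these lists, 4 calls were made between genotypes at days 14 and 21, where 15.2% of all genes were called. Csf3r was higher in Het at 1.36 ± 0.35 (edgeR adjusted p = 0.014) and the vascular receptor Kdr at 0.999 ± 0.25 (edgeR adjusted p = 0.0116). The stem cell factor receptor Kit was lower at -1.11 ± 0.26 (edgeR adjusted p = 0.0087) and the collagenase Mmp8 at -0.72 ± 0.19 (edgeR adjusted p = 0.0135). Their part in the macrophage result was not tested.

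**Figure D4:**
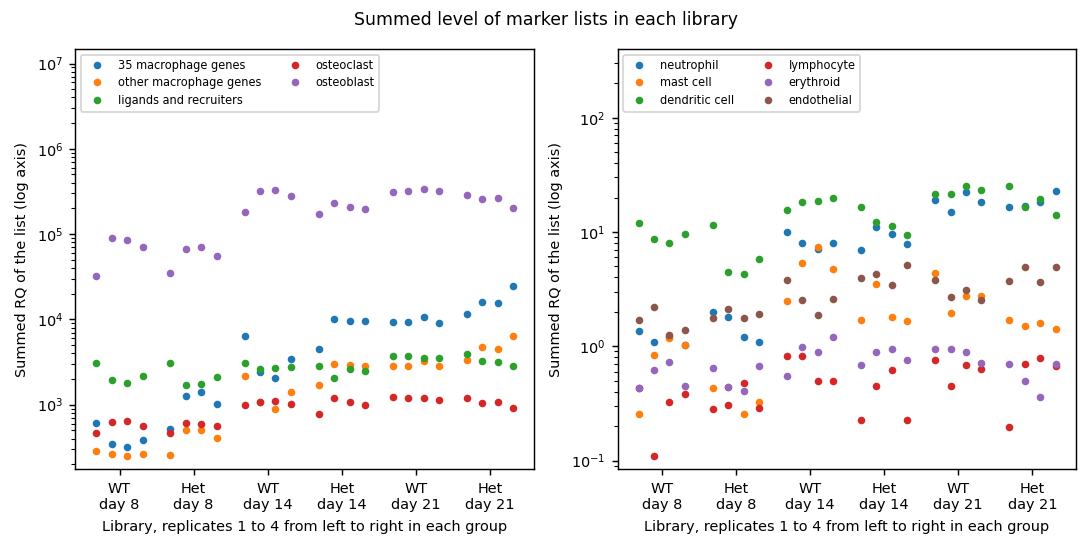
Summed RQ (log axis) of each marker list in each library, by genotype and day; 1 panel holds the 35 macrophage genes, 45 other macrophage genes, ligands, osteoclast and OB genes, and the other the lists of other blood and endothelial cells. The sum over the 35 macrophage genes climbs from 318 to 1414 at day 8 to 8986 to 24635 at day 21, and the lists of other cells stay at or below 25.2.

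Osteoclast genes, from the same lineage, were mixed. Of 10 tested among 11, 6 rose from day 8 to day 14 and 3 from day 14 to day 21, with 0 lower. These intervals had 34.2% and 12.1% of all genes higher. Atp6v0d2, a proton pump subunit, rose by 3.09 ± 0.31 (edgeR adjusted p = 4.4e-08) over the first interval. Dcstamp, a fusion receptor, was called too, at 0 to 2 counts at day 8 and 2 to 33 at day 14. In Het against WT at days 14 and 21, Tnfrsf11a, the receptor RANK, was among the 2 higher, at 0.93 ± 0.22 (edgeR adjusted p = 0.00915), and Mmp9 was the 1 lower, at -1.27 ± 0.32 (edgeR adjusted p = 0.0113). Of 20434 genes, 1461 were higher and 1637 lower in that comparison. Calcr, the calcitonin receptor of mature osteoclasts, had at most 3 counts in every library.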

How the data were processed

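PolyA RNA of 24 libraries was analysed from raw gene counts as deposited, made by the authors before deposit; the submitters' processing notes name cutadapt 2.5, STAR 2.73a, Subread and featureCounts 1.6.4 and the mm10 build. Read length, strand setting and annotation are not given in the sources used here, and 54587 of the 55335 gene IDs were found with the same version in GENCODE M21.

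Samples were grouped by genotype and day from the labels. Counts were fitted with edgeR 4.0.16 (R 4.3.3) by glmQLFit and glmQLFTest over all 24 libraries, with 6 groups, the housekeeping genes' geometric mean as library scale, filterByExpr, and Benjamini-Hochberg adjustment over 20434 genes at 0.05. Terms for replicate 1 were added to compare it with replicates 2 to 4. Alternatives were TMM, DESeq2 1.42.0 size factors and Wald test, total counts, other filters on low counts, a replicate block, and leaving out replicates. The fits were tested on simulated data. Those libraries were independent, with no effect other than the one under test. The simulation thus does not show how the fits perform where libraries are linked or a replicate stands apart. Counts are read counts without molecular identifiers, and depth limits genes of few counts, such as H2-Aa at day 8.

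The named genes were drawn from the 35 members, of each other list the 2 called genes with the largest change in a comparison, the 8 genes nearest to the members' median profile (with a mean of at least 50 counts), and paralogs. Csf1, Il34 and Calcr were named after their values were seen. The members and lists were chosen with earlier results of these data known. Deviations from group means of WT and Het libraries with the same replicate number correlated at 0.193 to 0.713 in 12 pairs. In 36 pairs with different numbers the values were -0.670 to 0.567. Every pair of replicate 1 with another number was negative. Deviations from a group mean cancel, so a number that stands apart in both genotypes gives such signs by itself. Without replicate 1 the ranges overlapped, at 0.193 to 0.622 for the same number and -0.0398 to 0.567 for different numbers. The values thus set replicate 1 apart and do not decide how the other libraries pair. Ratios by replicate number and the replicate block assume that equal numbers pair, which the labels do not state. No 2 libraries agreed within counting noise.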

Additional observations from a re-analysis of the deposited data

Results flagged for a closer look

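Each of 35 members in 6 groups of 4 libraries was tested for a library far from the rest, by the gap to the nearest library over the group's whole range, against Dixon's 95% critical value. In 210 tests, 25 passed. Chance alone flags about 1 in 20 single tests. These tests are not independent, since the members were measured in the same libraries and moved together, so that rate is no yardstick for the total. In Het at day 14, replicate 1 was the low library for 14 genes, at a ratio of 0.8576 for Lyz2, 0.843 for C1qa, 0.9108 for C1qc, 0.8529 for Adgre1, 0.9501 for Fcer1g, 0.8671 for Aif1 and 0.8591 for Cd14. The others of these were Mrc1 at 0.8573, Mpeg1 at 0.8957, Cx3cr1 at 0.9299, Spi1 at 0.8824, Fcgr3 at 0.9833, Fcgr2b at 0.8643 and Ms4a7 at 0.8336.

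Replicate 1 was the high library in WT at day 8 for Cd163 (0.8854), Trem2 (0.8877) and Spi1 (0.9282), in WT at day 14 for H2-Ab1 (0.8701), in WT at day 21 for Aif1 (0.8307) and in Het at day 21 for F13a1 (0.8324), and the low one in Het at day 21 for Cd14 (0.8961). Replicate 4 of Het at day 21 was high for Mrc1 (0.9256) and Fcgr3 (0.9303). H2-Aa was flagged in Het for a low replicate 4 at day 8 (0.9024) and a high replicate 3 at day 21 (0.9331); the day 8 value rests on 1 to 6 counts.

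The Het effect differed between replicates 2 to 4 and replicate 1 for 28 of 35 members (edgeR interaction, adjusted p under 0.05), at a median log2 difference of 1.62. The test was added after the values were seen.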

How the results depend on the processing

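Of the 35 members, the number called from day 8 to day 14 ranged from 32 to 34 when a replicate was left out, from day 14 to day 21 from 13 to 35, for Het against WT at days 14 and 21 from 0 to 28 and at day 8 from 0 to 28. The range was 0 to 2 for the difference of the Het effect between the later days and day 8. It was also 0 to 2 for the difference of the day 14 to day 21 change between genotypes. For that change between replicate 1 and the rest, averaged over genotypes, the range was 0 to 0. It was 2 to 3 for replicate 1 against the rest and 22 to 27 for the Het effect between replicates 2 to 4 and replicate 1. These fits tested 19656 to 20599 genes. Over the first interval 5224 to 9008 of all genes were higher, and over the second 967 to 3722. In Het against WT, 86 to 8236 were called at days 14 and 21, and 0 to 814 were higher at day 8. Replicate 1 was higher than the rest for 5366 to 5663 genes, and the Het effect was larger in replicates 2 to 4 for 209 to 387. Called separately, 5 members rose from day 14 to day 21 in Het, and 13 and 0 differed between genotypes at days 14 and 21. At day 8 TMM gave 19, DESeq2 size factors 19, the DESeq2 Wald test 25, and leaving out replicates 1 and 4 gave 29. Of all genes, 0.636% (TMM), 0.592% (size factors) and 1.18% (Wald test) were then higher, and 743 of 19685 without replicates 1 and 4. Without replicates 1 and 4, a choice made after seeing the data, the difference of the Het effect between days was called for 16 and that of the change between genotypes for 26. The cause of these differences was not tested. At day 14 alone, TMM gave 22, DESeq2 size factors 23, total counts 24, the DESeq2 Wald test 23 and no filter 4. Of all genes, 4.61% (TMM), 4.97% (size factors), 7.51% (total counts) and 4.25% (Wald test) were then higher, and 172 of 36970 with no filter. Of the 3072 fold changes that these and the other alternatives gave for members called in the same comparison with all libraries, 0 had the opposite sign. The alternatives reuse the same libraries, and none took replicate 1 alone, so this count could hardly come out otherwise. In replicate 1 alone, Het exceeded WT for 8 members at day 8 and 3 at day 14, against 52.2% and 26.1% of all genes. The members' median for replicate 1 against the rest, -0.07 on the log2 scale, was 0.01 by the DESeq2 Wald test.

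With the replicate block, 34 members were called from day 8 to day 14, 33 from day 14 to day 21, 27 between genotypes at days 14 and 21, 13 at day 8, and 0 for both differences, none of which moved by over 1.5 times. Of 20434 genes, 7754 and 3314 were then higher over the intervals, and 2084 and 102 were higher in Het at the later days and at day 8. At single days it moved the count from 13 to 21 at day 14 and from 0 to 1 at day 21. In the comparisons over both genotypes, over both later days and at day 8, it changed the call of 4 members, each given beside its result, and of no other. The replicate block without replicate 1 gave 29 at day 8, 3 for the difference of the Het effect between days and 1 for the difference of the change between genotypes. Of 19656 genes, 822 were then higher at day 8. The difference between days was called as higher for 744 genes and lower for 176, and that of the change for 1 and 5. Depth limits the class II genes, H2-Aa having 1 to 6 counts per library at day 8.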
